A study of Danio rerio with 28 samples.

Results

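The genes described here are the solute carriers of families 1 to 13, that is, the genes whose symbol begins with slc, a family number between 1 and 13, the letter a and a member number, except slc4a1a. The rule uses symbols and no measured value, though it was set with earlier results of these data known. The reference annotation lists 154 such genes in zebrafish. Of these, 59 were read by 91 probes that could be named through a RefSeq accession, among 10536 named genes and 43603 probes on the array. A further 4 genes (slc2a1b, slc6a18, slc7a11 and slc12a7b) had probes that only the study's list of probes altered by E2 names. As that list was drawn from these same arrays, those 4 genes are described separately. They are in none of the counts except those of pools far from the others, in a closing section. The remaining 91 genes had no probe named here. The symbol slc7a6os matched the rule although its name marks a gene on the strand opposite slc7a6 and not a carrier. It is kept among the 59 genes, which are called carriers below.

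Solute carriers are membrane proteins that move small molecules across the plasma membrane or the membranes of organelles. Most members of these families use the sodium gradient to pull a solute into the cell, others exchange one solute for another, and the slc2 family lets sugars flow down their own gradient. In nerve tissue they clear transmitters from the synapse. In the gut and the kidney they carry sugars, amino acids, bile acids and ions across the epithelium, and these organs take shape in the zebrafish embryo during the days sampled here.

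Wild-type DZ embryos were kept from about 3 hpf in 1 µM E2 (17β-estradiol, an estrogen) with its DMSO vehicle, or in 0.1% DMSO alone, and were collected as pools of 30 whole embryos at 1, 2, 3 and 4 dpf. The labels time these collections at 24, 48, 72 and 104 hpf, so the last interval was the longest. Each treatment had 3 pools on each of the first days (1 and 2 dpf) and 4 on each of the later ones (3 and 4 dpf), so that 28 arrays, read in 1 dye, fell into 8 groups. Embryos from several parent pairs were divided between wells, and replicates came from separate batches of embryos according to the study's methods. The replicate number was fitted as a block, so the p-values measure the spread between pools that is left after it. In whole embryos, fewer cells of a type and less RNA per cell cannot be told apart.

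Every value below is a log2 signal after quantile normalization over the 28 arrays, so a difference of 1 is a 2-fold difference. Signals of different probes were not compared with each other, though those of a tissue's markers are summed further below. A carrier with several probes was represented by the one with the highest mean signal. Of the 59 carriers, 39 were well above background on all 28 arrays and 20 on some of them, and 56 were so on every array of at least 1 group. A change was called where limma gave an adjusted p under 0.05 after Benjamini-Hochberg adjustment over all 43603 probes.

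1 array stood furthest from the rest. On E2 replicate 1 of 3 dpf, 96.1% of probes were marked as well above background, against 58.1% to 73.8% on the other 27 arrays, and its estimated weight was 0.0456, where the next lowest weight was 0.226. Of the 59 carriers, 23 lay below all 7 other arrays of 3 dpf on this array and 10 lay above them, by more than 1 log2 unit in 12 and in 4 carriers. These counts describe the array and not the carriers, and the same counts over all probes were not computed. Results that rest on it are given with and without it, apart from the counts of arrays above background, which all include it. Differences within its scan batch are given with it only. The mark says little on this array, where slc5a1 at 0.62 and slc6a19b at 1.08 also carried it. The next lowest weight and the lowest share marked (58.1%) both belonged to E2 replicate 4 of 4 dpf. On that 4 dpf array 529 spots had an outlier flag, where the next highest count was 35. It gave the highest E2 signals of slc2a8 (4.99) and slc12a3 (8.13) at 4 dpf. Some tissue markers were well above background on all 28 arrays. These included each neuronal (elavl3, snap25a, stmn2a) and glial (gfap, fabp7a) marker with a named probe, the intestinal fabp2 and the pronephric cdh17. Others were not: the intestinal vil1 was so on 25, the liver marker fabp10a on 26, and the pancreatic cpa5 and prss59.1 on 23 and 24. In DMSO means vil1 rose from 3.22 at 1 dpf to 12.55 at 4 dpf, while fabp2 went from 16.17 to 15.19.

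Most carriers changed with stage. In DMSO embryos 44 of 59 carriers were called over the 4 stages by the F test (74.6%), beside 69.6% of the main probes of all named genes and 47.7% of all probes. Between 1 and 4 dpf 39 carriers were called, of which 26 were higher at 4 dpf and 13 lower (44.1% and 22% of the carriers). Of the named genes 65.9% were called, and these leaned the other way, with 28.8% higher and 37.1% lower. Over all probes 47.1% were called. The median difference between 4 and 1 dpf was 0.48 over the carriers, -0.18 over the named genes and -0.16 over all probes. The median over all probes depended on the scaling and was 0.07 with each array set to its 75th percentile, where 29 carriers were called higher and 13 lower. Without 3 dpf E2 replicate 1, which enters the shared estimate of the spread, 44 carriers were called, 30 higher and 14 lower. The shares of all probes called with that scaling or without that array are not given here.

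**Figure D1:**
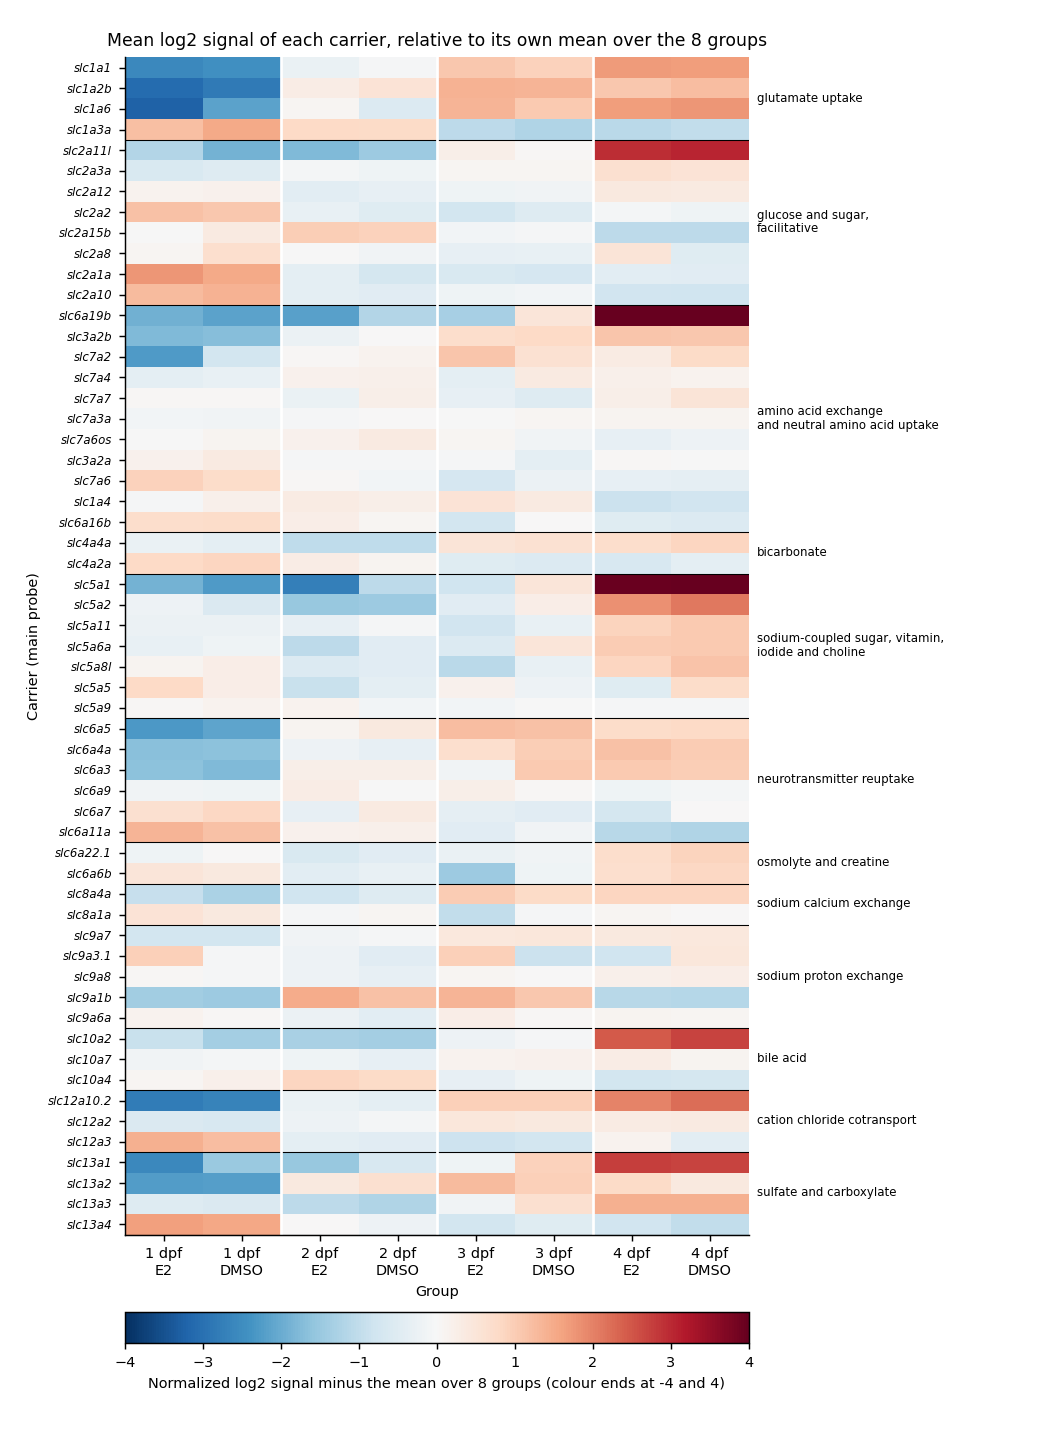
Mean log2 signal of 57 of the 59 carriers in each of the 8 groups (columns, E2 left of DMSO at each stage), after subtracting each carrier's own mean over the groups, with the rows sorted by role and by the difference between 4 and 1 dpf in DMSO. Red is above and blue below that mean, with the colour ending at 4 in either direction; slc1a1 runs from blue at 1 dpf to light red at 4 dpf, slc1a3a the other way, and the columns of a stage look alike.

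The carriers differed in when they changed. Of the 44 called for stage in DMSO, the highest mean fell on 1 dpf for 10, on 2 dpf for 4, on 3 dpf for 8 and on 4 dpf for 22. Taken as differences of group means, the largest of the 3 daily steps lay between 1 and 2 dpf for 21 of them, between 2 and 3 dpf for 10 and between 3 and 4 dpf for 13. The matching distributions over named genes and all probes were not computed, so this timing is not read as particular to the carriers. From 1 to 2 dpf 24 carriers were called (40.7%, with 14 higher and 10 lower), beside 39.9% of the named genes (17.9% higher and 22% lower) and 25.1% of all probes. From 2 to 3 dpf 20 were called (33.9%, with 17 higher and 3 lower), beside 25.9% of the named genes (15.1% higher and 10.8% lower) and 16.3% of all probes. From 3 to 4 dpf 17 were called (28.8%, with 12 higher and 5 lower), beside 19.4% of the named genes (8.57% higher and 10.8% lower) and 10.8% of all probes. In a fit without the replicate number the 3 steps had 20, 15 and 12 carriers called, and the shares of all probes in that fit are not given here. Only 3 carriers (slc1a1, slc2a10 and slc12a10.2) were called at all 3 steps, while 19 were called at 0 steps.

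Most neurotransmitter carriers, which return transmitter to neurons and glia, rose, and mostly early. Of 8 in this group, 5 rose and 1 fell between 1 and 4 dpf, and 5 of the 6 called for stage had their largest step in group means between 1 and 2 dpf, narrowly so for slc6a4a. The glycine transporter of inhibitory neurons, slc6a5, was one of them. Its signals at 1 dpf were 5.16, 5.41 and 5.98 in E2 pools and 5.05, 6.03 and 6.09 in DMSO pools. The pools of 2 dpf read 7.10, 8.34 and 8.35 with E2 and 7.64, 8.62 and 8.35 with DMSO, so every pool of 2 dpf exceeded every pool of 1 dpf in both treatments. The step was 2.48 ± 0.25 (SE) in DMSO (limma, adjusted p = 3.19e-07). The later pools lay between 8.79 and 9.27 with E2 and between 8.45 and 9.29 with DMSO at 3 dpf, and overlapped with those of 4 dpf, which read 7.42, 8.88, 9.17 and 8.72 with E2 and 8.06, 8.23, 9.16 and 9.09 with DMSO. Between 1 and 4 dpf slc6a5 rose by 2.82 ± 0.24 in DMSO, a 7.08-fold difference (limma, adjusted p = 6.3e-09).

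The serotonin transporter slc6a4a rose by 2.72 ± 0.26, in nearly equal fitted steps of 1.32 from 1 to 2 dpf and 1.36 from 2 to 3 dpf. The dopamine transporter slc6a3 rose by 2.44 ± 0.58 and at 1 dpf was above background on 2 of the 3 DMSO arrays. On 3 dpf E2 replicate 1 its signal was 0.80, against 5.54, 6.47 and 6.33 in the other E2 pools and 4.70 to 6.58 in DMSO pools.

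One carrier of the group ran against these. The GABA transporter slc6a11a, known in mammals from glia, had 7.88, 7.20, 7.56 and 7.19 in DMSO pools at 4 dpf against 9.59, 9.98 and 9.91 at 1 dpf, and fell by 2.30 ± 0.16 (limma, adjusted p = 4.64e-10). All 3 of its probes fell, by 2.12 to 2.51. The glycine transporter slc6a9 was called at no step and differed by 0.13 ± 0.23 between 4 and 1 dpf, but its probes disagreed, with the lowest at -0.50 and another called lower (-0.40, adjusted p = 0.0234). The proline transporter slc6a7 was not called in DMSO (-0.92 ± 0.51, adjusted p = 0.155). In E2 pools its difference was -1.44, with an adjusted p of 0.0243.

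The glutamate carriers take the main excitatory transmitter back into glia and neurons. All 4 were called, 3 upward and 1 downward. The neuronal type slc1a1 was the steadiest of them. Its DMSO pools of 1 dpf read 5.75, 6.66 and 6.49, and those of 2 dpf read 8.02, 9.20 and 8.86. The pools of 3 dpf followed with 9.39, 9.80, 9.66 and 9.90, and those of 4 dpf with 10.197, 10.54, 10.41 and 10.54. No 2 stages overlapped, each step was called, and the sum was 4.07 ± 0.17. The last step (0.73) had an adjusted p of 0.149 without the replicate block. The glial type slc1a2b rose by 3.92 ± 0.26, of which 3.36 fell between 1 and 2 dpf, and its highest mean was at 3 dpf in both treatments. slc1a6, known in mammals from Purkinje cells, was well above background on 0 of 6 arrays at 1 dpf and on all arrays from 2 dpf on, so it was at least 8.59-fold higher at 4 than at 1 dpf in DMSO (adjusted p = 2.36e-08).

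The other glial type, slc1a3a, moved in the opposite direction. Its DMSO pools of 1 dpf read 12.78, 13.24 and 12.77 and stood above those of 2 dpf with 12.56, 11.94 and 12.03. The pools of 3 dpf read 10.40, 10.21, 10.19 and 10.02, and overlapped with those of 4 dpf, which read 10.63, 10.62, 10.14 and 10.32. It fell by 2.46 ± 0.19, the largest fitted fall of the 59 carriers, and 1.93 of this came between 2 and 3 dpf (limma, adjusted p = 8.81e-07). In DMSO group means slc13a4 fell slightly more, from 10.55 at 1 dpf to 8.02 at 4 dpf, against 12.93 to 10.43 for slc1a3a. The course nearest to that of slc1a3a was that of the anion exchanger slc4a2a (r = 0.965 over the 8 group means).

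**Figure D2:**
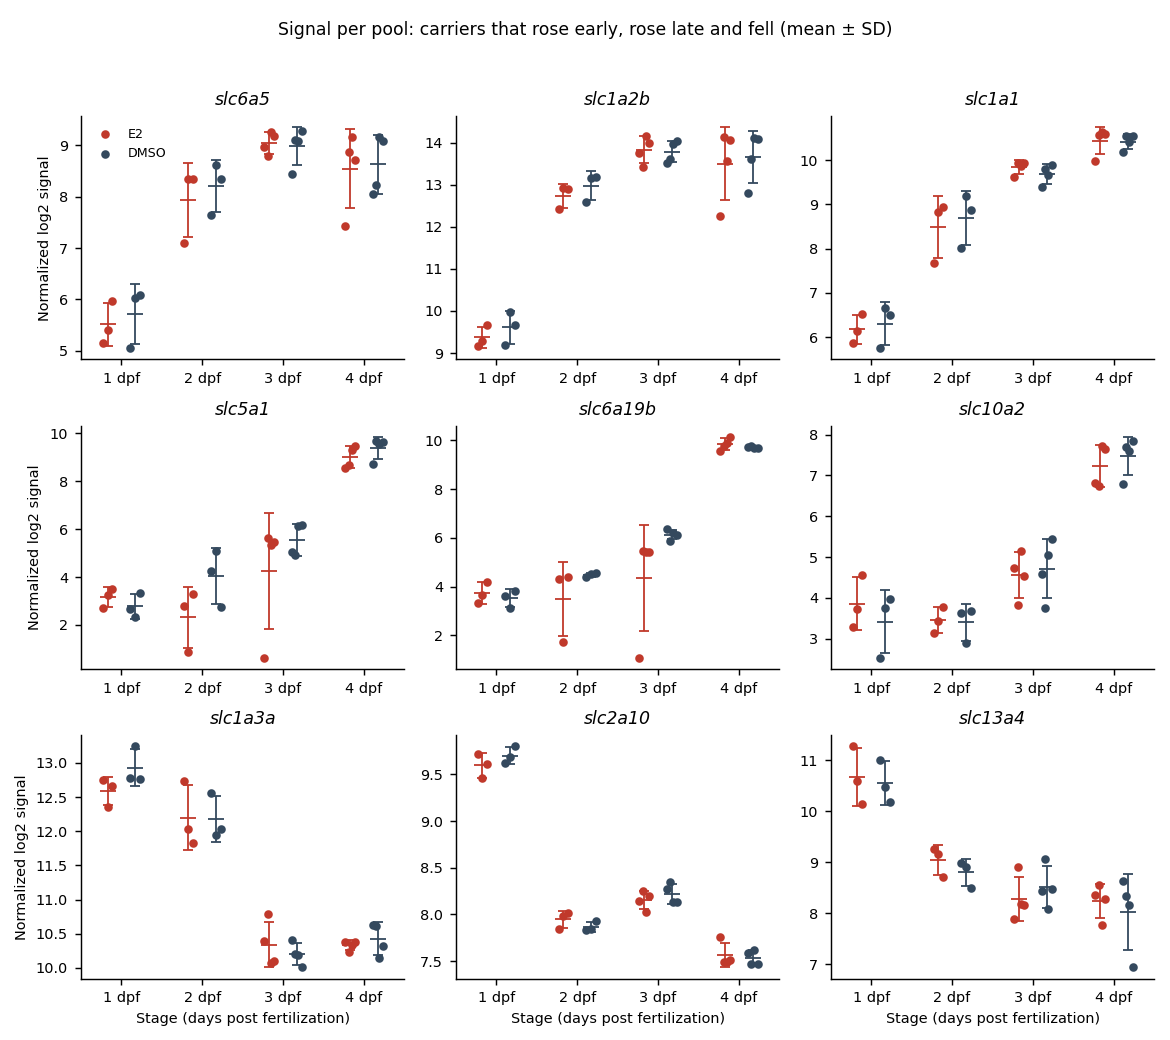
Normalized log2 signal of 9 carriers in every pool at 1 to 4 dpf, with E2 (red) left of DMSO (dark blue) at each stage; points are pools and bars are mean ± SD (n = 3 at 1 and 2 dpf, n = 4 at 3 and 4 dpf). The top row rose mainly from 1 to 3 dpf, the middle row mainly from 3 to 4 dpf and the bottom row fell, and the low E2 points of slc5a1 (0.62) and slc6a19b (1.08) at 3 dpf are replicate 1.

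The sodium-coupled slc5 carriers that changed did so late. Of 7, 3 rose and 0 fell between 1 and 4 dpf in DMSO, and all 4 that were called for stage had their largest step between 3 and 4 dpf. The median of the 7 for that last step was 1.33, beside 0.22 over the 59 carriers. slc5a1, the glucose carrier of the intestinal brush border, had 2.68, 2.32 and 3.35 in DMSO pools of 1 dpf and 4.24, 5.08 and 2.77 in those of 2 dpf. It had 5.04, 4.91, 6.11 and 6.17 a day later, and 8.71, 9.69, 9.56 and 9.63 in the DMSO pools of 4 dpf. The 1 and 2 dpf pools overlapped and the 4 dpf pools stood clear of all earlier ones. Only 1 of 3 arrays at 1 dpf in each treatment was well above background. The last step was 3.84 ± 0.75 (adjusted p = 0.0019) and the whole difference 6.41 ± 0.82, an 84.8-fold difference, and its other probe gave 4.83.

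slc5a2, the main glucose carrier of the kidney tubule, rose by 2.65 ± 0.34 between 1 and 4 dpf, with 1.69 from 2 to 3 dpf and 1.84 from 3 to 4 dpf. The inositol carrier slc5a11 stayed between 5.27 and 6.09 in DMSO pools through 3 dpf and had 6.51, 7.50, 6.66 and 6.47 at 4 dpf (1.30 ± 0.39, adjusted p = 0.0089). Its second probe already rose by 1.12 from 2 to 3 dpf (adjusted p = 0.0042) and gave 3.03 between 1 and 4 dpf. The vitamin carrier slc5a6a differed by 1.30 ± 0.67 and slc5a8l, of a group that carries short acids, by 0.81 ± 0.51, and neither was called. Without 3 dpf E2 replicate 1, on which slc5a6a read 1.20 and slc5a8l 0.94, 5 of the 7 were called. A second probe of slc5a8l read 6.04 on that array and gave -0.03 between 1 and 4 dpf with all arrays (limma, adjusted p = 0.98). slc5a9 differed by -0.18 ± 0.19 and its DMSO pools lay between 8.34 and 9.19 at all stages. The iodide carrier slc5a5 was well above background on 4 of 28 arrays, and the thyroid markers sought had no probe named here.

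2 carriers of other families known from the gut also rose between 3 and 4 dpf. slc6a19b, a neutral amino acid carrier of the brush border, had 9.74, 9.78, 9.68 and 9.71 in DMSO pools at 4 dpf, against 6.35, 5.88, 6.20 and 6.11 at 3 dpf. The stages did not overlap and differed by 3.59 ± 0.67 (adjusted p = 0.0014). From 1 to 4 dpf it rose by 6.09 ± 0.74, a 68.1-fold difference with 2 of 3 arrays of 1 dpf above background, and its other probe gave 3.18. Its course and that of slc5a1 were the most alike for both (r = 0.993). The bile acid carrier slc10a2, known from the ileum, had 6.79, 7.69, 7.60 and 7.83 at 4 dpf against 4.59, 3.76, 5.06 and 5.44 at 3 dpf in DMSO, and its 4 dpf pools exceeded all earlier pools. It rose by 2.77 ± 0.29 in that step and by 3.94 ± 0.32 in all. The related slc10a4 fell by 0.89 ± 0.26 between 1 and 4 dpf. slc10a7 was not called for it in DMSO (0.23 ± 0.15) and rose in E2 pools by 0.49 (adjusted p = 0.00942).

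**Figure D3:**
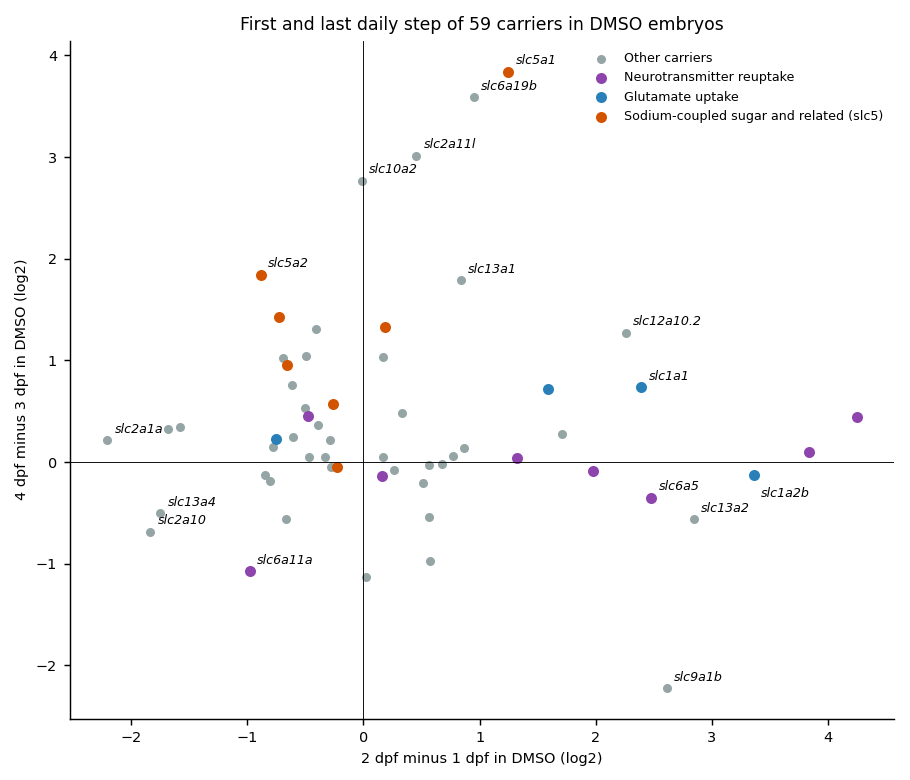
Difference between 2 and 1 dpf (x axis, log2) against that between 4 and 3 dpf (y axis, log2) in DMSO embryos, 1 point for each of 59 carriers. The rising neurotransmitter (purple) and glutamate (blue) carriers lie to the right near the x axis, with slc1a2b at 3.36, and slc6a11a lies below and to the left at -0.98 and -1.08, while slc5a1, slc6a19b and slc10a2 lie high on the y axis at 3.84, 3.59 and 2.77, and slc9a1b stands at 2.61 and -2.22.

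The sulfate and carboxylate carriers of the slc13 family were all called between 1 and 4 dpf. The sulfate carrier slc13a1, known from kidney and gut, was above background on 0 of 6 arrays at 1 dpf and on all 8 at 4 dpf, where its DMSO pools read 7.22, 7.14, 6.95 and 6.25, and was at least 15.2-fold higher there (adjusted p = 2.08e-05). slc13a2, a carrier of citrate and related acids, rose earlier. Its DMSO pools read 8.41, 8.19 and 8.35 at 1 dpf and 10.72, 11.48 and 11.28 at 2 dpf, a step of 2.84 ± 0.26, and its later steps (0.35 and -0.56) were not called. The related slc13a3 rose by 2.00 ± 0.24, mostly between 2 and 3 dpf (1.85 ± 0.24), and its 3 probes gave 1.28 to 2.00. The second sulfate carrier slc13a4 fell by 2.43 ± 0.29, with 8.64, 8.34, 8.16 and 6.94 at 4 dpf against 11.01, 10.48 and 10.17 at 1 dpf in DMSO. The family thus held both rising and falling sulfate carriers.

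The facilitative sugar carriers of the slc2 family held both falls and rises. Of 8, 4 fell and 2 rose between 1 and 4 dpf, and their median was -1.20, with the dim slc2a8 included. Of the named genes 37.1% were called lower and 28.8% higher, so with 8 carriers this split is not read as particular to the family. The same shares stand beside the counts of the other role groups. slc2a10 fell by 2.15 ± 0.11 with little spread: its DMSO pools of 1 dpf read 9.62, 9.68 and 9.80, and those of 2 dpf 7.83, 7.84 and 7.93. Those of 3 dpf read 8.28, 8.34, 8.13 and 8.13, and those of 4 dpf 7.58, 7.47, 7.62 and 7.47. Each step was called, and the one from 2 to 3 dpf was upward by 0.37 (0.36 without the replicate block, adjusted p = 0.0587). The ubiquitous glucose carrier slc2a1a fell by 1.80 ± 0.23 and slc2a2, the type of liver and intestine, by 1.097 ± 0.20. In both only the step from 1 to 2 dpf was called, at -2.21 for slc2a1a and -1.58 for slc2a2. slc2a15b fell by 1.31 ± 0.34 between 1 and 4 dpf, and its highest mean was at 2 dpf.

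The 2 risers of this family differed in size. The neuronal glucose carrier slc2a3a rose by 1.08 ± 0.13, with 12.35, 12.66, 12.58 and 12.22 at 4 dpf against 11.37, 11.58 and 11.19 at 1 dpf in DMSO. slc2a11l was above background on 0 of 12 arrays at 1 and 2 dpf, on 2 of 4 in each treatment at 3 dpf and on all 8 at 4 dpf, where the DMSO pools read 5.69, 5.77, 6.16 and 6.33. It was at least 8.15-fold higher at 4 than at 1 dpf. slc2a12 was called at 2 steps that offset each other (-0.50 and 0.53), and slc2a8 was above background on 2 of 28 arrays.

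Amino acid carriers outside the synapse were divided, with 2 of 11 higher, 3 lower and a median of 0.20, with slc7a6os counted among the 11. Besides slc6a19b the riser was slc3a2b, the heavy chain that brings several slc7 exchangers to the cell surface. Day by day its DMSO means were 9.48 ± 0.20 and 11.19 ± 0.48 (SD, n = 3 each) and then 11.97 ± 0.14 and 12.25 ± 0.15 (SD, n = 4 each). All 3 of its probes rose, by 2.56 to 2.81. Its copy slc3a2a differed by -0.45 ± 0.19 (adjusted p = 0.0518). slc3a2b had the course nearest to that of slc1a1, with r = 0.998. The falling members were slc1a4 (-1.06 ± 0.31, and not called without the replicate block, adjusted p = 0.154), a carrier of alanine and serine, slc7a6 (-1.04 ± 0.25), a partner of the heavy chain, and slc6a16b (-1.34 ± 0.48, adjusted p = 0.0277). The 1 missing spot of slc6a16b was in an E2 pool of 4 dpf, and its DMSO pools were all measured. The cationic amino acid carrier slc7a3a was among the flattest of all carriers, with DMSO pools between 9.10 and 9.83 at all stages.

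Carriers of ions made up the rest. The sodium and bicarbonate cotransporter slc4a4a rose by 1.11 ± 0.30, with a step of 1.48 between 2 and 3 dpf, while slc4a2a fell by 1.13 ± 0.26. Of the chloride cotransporters slc12a2 rose by 0.96 ± 0.14 (0.34 on a second probe, not called), and slc12a10.2, of a fish lineage of such cotransporters, was at least 7.53-fold higher at 4 than at 1 dpf, with each step called. slc12a10.2 and slc6a22.1 carry the symbols of tandem copies, whose probes may read more than 1 copy. slc12a3, a cotransporter of the kidney tubule, fell by 2.10 ± 0.60 but spread widely by replicate number: at 4 dpf E2 pools 1 to 4 read 3.02, 4.91, 6.62 and 8.13 and DMSO pools 2.15, 4.71, 6.80 and 6.79. Its fall was not called in the fit without the replicate block (-1.63, adjusted p = 0.2), and a second probe gave -1.69 (adjusted p = 0.0971).

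Among the sodium and proton exchangers slc9a1b, of the housekeeping type, rose and fell again. Its DMSO pools of 1 dpf read 1.34, 3.63 and 4.39, against 5.39, 5.63 and 6.18 in those of 2 dpf. The pools of 3 dpf read 5.08, 5.67, 5.88 and 5.94, and those of 4 dpf were back at 3.03, 2.80, 4.11 and 3.75. The outer stages overlapped with each other and not with the inner ones, and the steps were 2.61 ± 0.50 and -2.22 ± 0.43 (adjusted p = 4.9e-04 and 0.0019). Of the types found in the Golgi, slc9a7 rose by 1.13 ± 0.13 and slc9a8 by 0.30 ± 0.08, which with 75th percentile scaling was 0.09 (adjusted p = 0.517) and on a second probe -0.19 (not called). The endosomal slc9a6a differed by 0.08 ± 0.22. Of the sodium and calcium exchangers slc8a4a rose by 2.10 ± 0.31 and the cardiac type slc8a1a differed by -0.45 ± 0.36. The taurine carrier slc6a6b was not called (0.36 ± 0.65), and slc6a22.1 rose by 0.84 ± 0.28 with its other probes down to -0.62.

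The same courses were measured in E2 pools. These share no sample with the DMSO pools, but both entered the same fit, with a shared estimate of the spread and a shared replicate block. In E2 41 carriers were called between 1 and 4 dpf, 27 higher and 14 lower, beside 66.7% of the named genes and 48.7% of all probes. In both treatments 37 were called, all in the same direction, which is 94.9% of the DMSO calls and 90.2% of the E2 calls. The stage of the highest mean was the same in E2 for 40 of the 44 carriers called for stage in DMSO. The matching shares over all probes were not computed, so this agreement is not read as particular to the carriers. The change from 1 to 4 dpf differed between the treatments by a median of 0.15 and by at most 0.5 in 47 of 59 carriers, and the largest gap (2.24) was in slc9a3.1, which was above background on 8 of 28 arrays. The stage-by-E2 terms called 0 carriers with limma (4 with an unadjusted p under 0.05, smallest adjusted p 1.0), beside 0.0734% of all probes and 0.0759% of the named genes.

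E2 against DMSO was the comparison the study was built on. limma called 0 carriers at each of the 4 stages, and the smallest adjusted p was 0.654, at 3 dpf. Of all probes 0.0%, 0.00688%, 0.0321% and 0.0871% were called, in the order of the stages. An unadjusted p under 0.05 was reached by 2, 0, 8 and 1 carriers, beside 1.81%, 1.32%, 6.3% and 2.79% of all probes. The median differences over the carriers were -0.03, -0.01, -0.03 and -0.02, and all probes had 0.02, 0.01, -0.02 and -0.0035. The median standard error of a carrier was 0.30 on the first days and 0.26 on the later ones.

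The thresholds of the study's methods, an unadjusted p of at most 0.01 and at least 1.4-fold, were passed by 1, 0, 1 and 1 carriers in the order of the stages, beside 0.406%, 0.229%, 0.766% and 0.493% of all probes. All 3 were lower in E2, as were 0.206%, 0.142%, 0.468% and 0.206% of all probes. At 1 dpf it was slc1a6, with 1.73, 0.85 and 0.55 in E2 pools and 3.03, 1.63 and 1.76 in DMSO pools, none of them well above background. At 4 dpf it was slc5a5, with 1.57, 0.59, 2.59 and 0.58 in E2 pools and 2.03, 2.21, 2.76 and 3.29 in DMSO pools and 1 DMSO array above background. There limma gave -1.24 ± 0.42 with an adjusted p of 1.0 (unadjusted p = 0.0084). The remaining one, slc13a3 at 3 dpf, was measured on all 8 arrays.

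**Figure D4:**
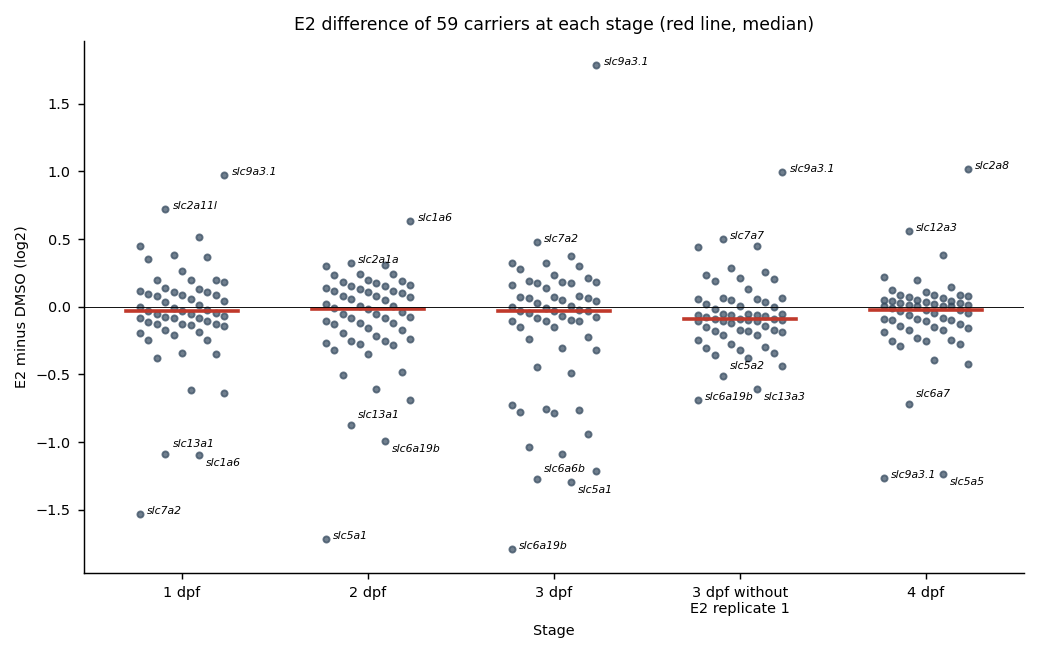
Difference E2 minus DMSO (log2, limma) of 59 carriers at the 4 stages in order, and at 3 dpf again without E2 replicate 1; each point is a carrier and the red line is the median. The medians lie between -0.09 and -0.01, and the spread at 3 dpf narrows without that array, where slc6a19b moves from -1.79 to -0.69.

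The 3 dpf comparison carried most of the small p-values, and it also held the array that stood apart. slc13a3 had 5.75, 6.47, 6.76 and 6.80 in E2 pools and 7.08, 7.17, 7.39 and 7.24 in DMSO pools, which did not overlap. The difference was -0.78 ± 0.22, lower in E2 in 4 of 4 pairs (unadjusted p = 0.0019 and adjusted p = 0.654 with limma). Without E2 replicate 1, its lowest pool, it was -0.61 ± 0.22 (adjusted p = 0.9999 with limma). Its other probes gave -1.05 and -1.25, and -0.24 and -0.56 without that array. Within the 2 scan batches that held both treatments of 3 dpf the main probe differed by -0.97 and -0.54. The first value compares 2 E2 arrays, replicate 1 among them, with 1 DMSO array, and the second compares 2 with 2. At 4 dpf the slc13a3 pools overlapped, with 8.03, 8.26, 7.88 and 7.78 in E2 and 8.27, 7.86, 8.03 and 7.77 in DMSO.

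Most other carriers with a small p at 3 dpf moved more without this array. slc6a19b had 1.08, 5.47, 5.44 and 5.41 in E2 pools and 6.35, 5.88, 6.20 and 6.11 in DMSO pools. These groups did not overlap even without the low pool, where the difference was -0.69 ± 0.38 in place of -1.79 ± 0.67 (unadjusted p = 0.089 and 0.0153, adjusted p = 1.0 and 0.654 with limma). slc8a1a had 2.88, 4.82, 5.39 and 5.45 in E2 pools and 5.55, 5.68, 5.47 and 5.60 in DMSO pools, also apart, with -0.38 ± 0.17 in place of -0.94 ± 0.33, and a second probe gave 0.42 with the array and -0.15 without it. slc5a2 had 3.44, 4.91, 4.89 and 4.81 in E2 pools and 4.77, 4.99, 5.59 and 5.62 in DMSO pools, with -0.51 ± 0.32 without the array and -0.73 ± 0.31 with it. Within the same scan batches slc6a19b differed by -3.08 and -0.74, slc8a1a by -1.70 and -0.11 and slc5a2 by -0.60 and -0.75. The first value of each again includes E2 replicate 1 and rests on 1 DMSO array.

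For slc6a3 and slc6a6b most of the difference came with the 1 array. Without it slc6a3 differed by -0.27 in place of -1.22 and slc6a6b by -0.17 in place of -1.27, and neither had an unadjusted p under 0.05. slc5a1 and slc13a1, whose unadjusted p-values were above 0.05 with the array too, differed without it by -0.18 in place of -1.30 and by -0.17 in place of -1.09. slc6a11a differed in this on its main probe, where replicate 1 (8.27) lay with the other E2 pools (8.26, 8.13 and 8.19) below 3 of 4 DMSO pools (8.60, 8.78, 8.56 and 8.18), at -0.30 ± 0.16 without it and -0.32 ± 0.15 with it. On its other probes replicate 1 was the lowest of the 8 pools (7.32 and 2.63), and the differences were -0.10 and -0.27 without it in place of -0.31 and -0.81. Upward, slc9a3.1 had 5.42, 1.86, 3.24 and 2.69 in E2 pools and 0.66, 0.74, 3.28 and 1.38 in DMSO pools, on 3 and 1 arrays above background, with 1.00 ± 0.54 without the array and 1.79 ± 0.64 with it. slc2a11l gave 0.18 ± 0.42 with the array and -0.44 ± 0.31 without it, and slc6a7 gave 0.08 ± 0.46 and 0.45 ± 0.47, while its other probes gave -0.48 and -1.37 with the array and -0.30 and -0.35 without it. A second probe of slc2a11l, near background, gave -1.15 and -1.08.

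**Figure D5:**
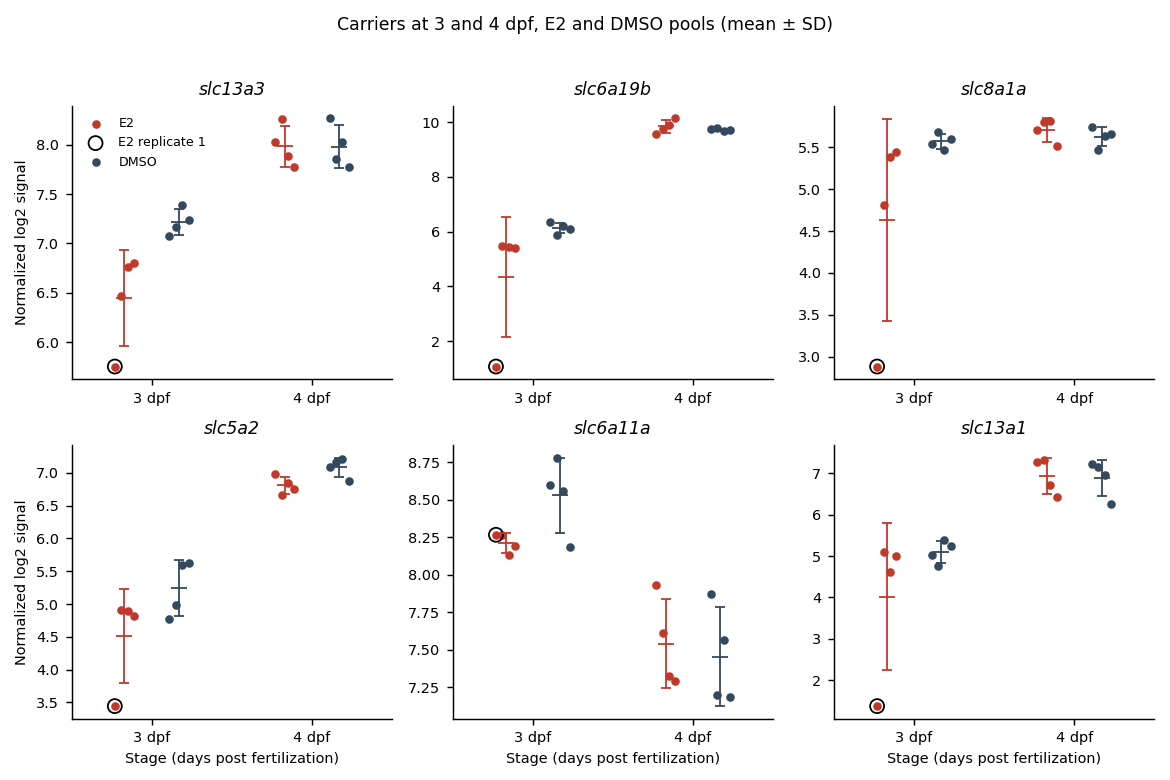
Normalized log2 signal of 6 carriers at 3 and 4 dpf in E2 (red, left) and DMSO (dark blue, right) pools; points are pools, bars are mean ± SD (n = 4 each), and the ring marks E2 replicate 1 of 3 dpf. slc13a3, slc6a19b and slc8a1a have all E2 pools below all DMSO pools at 3 dpf, and in 5 of the 6 panels the ringed pool is the lowest of its group.

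Without that array 0 carriers were called at 3 dpf, 0 passed the study's thresholds (0.39% of all probes) and 2, slc13a3 and slc8a1a, had an unadjusted p under 0.05 (2.13% of all probes). The number of carriers lower in E2 was 39 of 59 without it and 34 with it, the median was -0.09 and -0.03, and 38 carriers kept their direction. Over all probes the median with the array was -0.02. The number of all probes lower in E2, and their median without the array, are not given here. The lean is therefore not read as particular to the carriers. In the same pools the liver marker fabp10a lay between 7.81 and 8.26 in E2, replicate 1 included, and between 9.71 and 11.22 in DMSO (adjusted p = 0.0572). With the second liver marker ambp, the summed liver signal (2 of 4 listed markers had a probe) was 12.29 to 13.03 in E2 and 12.71 to 13.09 in DMSO. The summed pancreatic signal (try, cpa5 and prss59.1, 3 of 4) was 11.54 to 12.33 in E2, lowest in replicate 1, and 12.34 to 12.48 in DMSO, where prss59.1 differed by -2.01 and try by -0.44 (adjusted p = 0.654 each). Of the 3 markers listed as intestinal fabp2 differed by -0.16, vil1 by -0.35 and apoa4b.1 by 0.04, with a summed signal of 15.62 to 16.10 in E2 and 15.56 to 16.12 in DMSO. In DMSO means fabp2 and apoa4b.1 already read 16.17 and 15.46 at 1 dpf, against 15.19 and 15.30 at 4 dpf. Their courses thus differed from the rise of vil1, which hardly enters the sum. Of the pronephric markers cdh17 differed by 0.11 and pax2a by 0.15, with sums of 10.18 to 10.56 in E2 and 10.06 to 10.56 in DMSO. In each sum the brightest marker weighs most, so a change of a dimmer one hardly shows. The part of these tissues in the carrier values was not tested.

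At the other stages the lowest p-values belonged to carriers of several roles. At 1 dpf slc1a3a had 12.75, 12.36 and 12.66 in E2 and 12.78, 13.24 and 12.77 in DMSO pools, without overlap (-0.34 ± 0.20). slc7a2 and slc13a1 gave -1.53 and -1.09, with 0 E2 arrays above background in both, and 1 and 0 of the 3 DMSO arrays. A second probe of slc7a2, not above background in either treatment, gave 0.82. At 2 dpf slc5a1 gave -1.71 ± 0.86, slc1a6 0.64 ± 0.38, slc2a1a 0.32 ± 0.24 and slc9a8 0.13 ± 0.09, each with an adjusted p of 1.0. Within the scan batches that held both treatments slc5a1 differed by -1.89 (1 E2 and 2 DMSO arrays) and 0.52 (1 of each). Its second probe, not above background in either treatment, gave 0.93. At 4 dpf slc2a8 gave 1.02 from 1 E2 pool at 4.99, while the other 7 lay between 0.65 and 0.87. slc9a3.1 gave -1.26 ± 0.64, slc6a7 -0.72 ± 0.46 and slc13a2 0.38 ± 0.22. Within scan batches slc9a3.1 differed by 0.04 (1 E2 and 2 DMSO arrays) and -1.94 (2 of each).

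The 4 genes named by the study's list alone had been chosen there for their E2 values on these arrays, so their E2 differences are descriptions. slc2a1b, the copy of slc2a1a, had 3.99, 6.49, 6.29 and 6.47 in E2 pools and 7.25, 6.75, 6.40 and 6.39 in DMSO pools at 3 dpf, a difference of -0.89, and of -0.21 without E2 replicate 1. The potassium and chloride cotransporter slc12a7b had 4.23, 6.28, 7.19 and 7.16 in E2 pools and 5.83, 6.16, 7.52 and 7.34 in DMSO pools at 3 dpf, a difference of -0.50, and of -0.17 without it. slc6a18 at 4 dpf had 1.74, 2.64, 2.79 and 2.04 in E2 pools and 0.91, 0.92, 1.30 and 0.90 in DMSO pools, which did not overlap but were all at background. slc7a11, the cystine carrier, had 2.65, 3.01 and 1.74 in E2 pools and 3.63 and 2.37 in the 2 DMSO pools measured at 1 dpf, with 1 array above background. With stage, slc2a1b rose by 1.26 ± 0.44 and slc12a7b by 1.16 ± 0.25 between 1 and 4 dpf in DMSO, so slc2a1b rose where slc2a1a fell.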

How the data were processed

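Total RNA from the 28 pools was labelled with Cy3 and hybridized to an Agilent zebrafish array, 1 pool to an array. The authors deposited the intensity of every spot after the scanner software's own background and spatial correction, not normalized between arrays; file headers give Feature Extraction 10.7.3.1 and the submitters' processing notes 11.0.1.1. The series' value table equals these intensities (1266160 of 1266160 values) and was not used further.

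Control spots and spots with an outlier flag (3 to 529 an array) were dropped, 0 spots were saturated, and log2 intensities were quantile normalized and averaged per probe. limma 3.58.1 (R 4.3.3) fitted group and replicate number, as the methods of the study remove replicate effects before testing. Plots used matplotlib 3.10.9, and tables used numpy 2.4.6 and pandas 2.3.3 under Python 3.11.15. Same-numbered E2 and DMSO arrays of a stage deviated together in 14 of 14 pairs (r between 0.175 and 0.649), and between different numbers the median r was -0.204. Scan batches of 12, 4 and 12 arrays held 5, 3 and 6 E2 arrays. Replicate number was tied to slide and scan. Same-numbered arrays of a stage shared both, except in replicate 2, where the treatments were split (r between 0.236 and 0.336). There the E2 array fell in the smallest batch, but at 3 dpf the DMSO array did. The replicate block thus cannot fully remove scan from the E2 differences. Replicates 3 and 4 all fell in the last batch. What replicate number adds to slide and scan was not tested. "Well above background" is the scanner software's flag. Where a group had no array with it, fold changes are bounds, for which a dim array counted at its own value or, if that was lower, at its lowest signal with the flag; no bound is given where this falls below 1. The fit was also run on arrays simulated from its own group means, block effects and spreads. Each probe had the same spread on every simulated array. That run therefore cannot show how the fit handles an array such as 3 dpf E2 replicate 1. Array number limits the precision.

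Members, lists and alternatives were chosen with earlier results of these data known. At each stage the text names carriers past a threshold, else the 5 lowest unadjusted p-values, and those the study lists for E2; for stage it names up to 3 called carriers of a role with the largest change, both directions included, the 5 flattest, and duplicates that were called in opposite directions (none among those named by accession). Some members that enter the counts are not reported here one by one. Other members are named to complete a group and were chosen after their values were seen. No genome coordinates or sequences are given, since the array's build differs from that of the reference.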

Additional observations from a re-analysis of the deposited data

Results flagged for a closer look

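Groups of 4 pools, those of 3 and 4 dpf, were examined for a pool far from the other 3. Over the 44 carriers named in the text by rule 166 such groups were tested and 20 held a pool whose gap to its nearest neighbour was a larger share of the group's range than Dixon's 95% critical value for 4 samples. The 44 include slc2a1b, slc6a18, slc7a11 and slc12a7b, which only the study's list of E2-altered probes names. Chance marks about 1 in 20 groups where groups are picked without regard to their values. Some of these carriers were named for E2 or stage differences in these same pools, so the 20 are not compared with that share.

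At 3 dpf 12 of the 20 were E2 replicate 1. It was low for slc5a1 (0.62), slc6a19b (1.08), slc13a1 (1.38), slc6a16b (2.14), slc5a2 (3.44), slc5a11 (3.78) and slc2a1b (3.99), and high for slc6a18 (4.20), slc12a10.2 (5.06), slc7a2 (7.31), slc9a6a (7.91) and slc6a9 (8.63). In DMSO at 3 dpf replicate 2 was low for slc1a6 (4.82) and slc6a22.1 (7.23). At 4 dpf E2 replicate 1 was low for slc4a4a (8.15) and slc1a1 (9.99) and high for slc2a10 (7.76). DMSO replicate 1 of 4 dpf was low for slc5a1 (8.71) and slc7a3a (9.10). E2 replicate 4 of 4 dpf was high for slc2a8 (4.99), with the other 3 pools between 0.65 and 0.87.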

How the results depend on the processing

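Apart from leaving out pools, 10 other settings were tried. With E2 0 carriers were called at each stage in all of them, and the stage-by-E2 terms called 0. The counts past the study's thresholds, 1, 0, 1 and 1, moved. At 1 dpf the count was 0 without the replicate block, with normexp background (chosen after seeing the data) and with scan batch as a block. At 3 dpf it was 2 with normexp, with scan batch or slide as a block and over any probe, 4 with slide as a random block and 0 with only the stages compared. At 4 dpf it was 0 with 75th percentile scaling, normexp, the filter on dim probes, scan batch, slide or slide as a random block, array weights and only the stages compared. From 2 to 3 dpf 8 carriers in place of 20 were called with slide as a block, 31 with array weights and 13 with only the stages compared. The causes were not tested, and the shares of all probes called in these settings are not given here.

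Leaving out 1 pool at a time gave 0 calls with E2 at every stage and for stage by E2. Past the study's thresholds it gave 0 to 2 carriers at 1 dpf (0 without E2 replicate 2, DMSO replicate 1 or DMSO replicate 3, and 2 without 3 dpf E2 replicate 1). At 2 dpf it gave 0 to 1 (1 without DMSO replicate 3 or 3 dpf E2 replicate 1). At 3 dpf it gave 0 to 5 (0, 3, 5 and 2 without E2 replicates 1 to 4, and 2 without DMSO replicate 3), and at 4 dpf 0 to 1 (0 without E2 replicate 1, 2 or 4 or DMSO replicate 2, 3 or 4). It gave 20 to 32 calls from 1 to 2 dpf, 14 to 27 from 2 to 3 dpf, 13 to 22 from 3 to 4 dpf, 37 to 44 from 1 to 4 dpf in DMSO, 35 to 48 in E2 and 41 to 49 for stage. The highest of each of these 6 was without 3 dpf E2 replicate 1.

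No called difference of a carrier named by rule turned its direction, and these uncalled ones did. For 4 minus 1 dpf in DMSO these were slc5a9 (-0.36 to 0.026 without 1 pool), slc6a9 (-0.056 with slide as a block, -0.26 over the mean of its probes), slc7a3a (-0.080 over the mean of its probes) and slc9a6a (-0.34 with slide as a block, -0.054 as a random block, and -0.063 to 0.21 without 1 pool, -0.0033 without DMSO replicate 4 of 4 dpf). For E2 they were slc7a11 at 1 dpf (0.0052 with normexp, -1.12 to 0.58 without 1 pool), slc2a11l at 3 dpf (-0.051 with array weights, -0.44 without E2 replicate 1), slc12a7b at 3 dpf (0.045 with 75th percentile scaling), slc2a8 at 4 dpf (-0.082 to 1.48 without 1 pool, the lowest without E2 replicate 4) and slc6a7 at 3 dpf (-0.26, -0.30 and -0.10 with scan batch, slide or slide as a random block, -0.59 over the mean of its probes, -0.33 to 0.45 without 1 pool, and -0.0066 without DMSO replicate 1). Scaling to the 75th percentile moved the median of all probes at 3 dpf from -0.02 to 0.24 for E2 minus DMSO. Called differences between 4 and 1 dpf fell short of the threshold in some settings for slc6a16b, slc6a22.1, slc9a8, slc10a4 and slc12a3, and the last did so without the replicate block alone. Without the replicate block 37 carriers were called between 1 and 4 dpf in DMSO, 38 in E2 and 37 for stage, and slc1a4 lost its call (adjusted p = 0.154). Dim carriers, with signals near background on most arrays (slc2a8, slc5a5, slc9a3.1), limit what can be read from them.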
